A study of Mus musculus with 4 samples.

Results

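The 10 genes described here are Isg15, the enzymes that attach its protein to other proteins (Uba7, Ube2l6 and Herc6), the protease that removes it (Usp18), and the antiviral effectors Isg20, Rsad2, Mx1, Mx2 and Ifi44. They were taken by name from the 54842 genes of the deposited count table, and all 10 were found there. Total RNA, cleared of ribosomal RNA, was sequenced from untreated MEF cells (mouse embryonic fibroblasts) of 2 genotypes, wt and Top2β-null, with 2 libraries each. Top2β is topoisomerase 2β, an enzyme that passes 1 DNA duplex through another, and the comparison asked how RNA levels differ in cells that lack it. The Top2β-null MEF cells came from null mice and were obtained from another laboratory, and the sources used here do not say whether the wt MEF cells share their strain or derivation, so that genotype and origin of the cells cannot be told apart. Nothing states that the libraries of a genotype are separate cultures, and p-values therefore measure the spread between these 4 libraries.

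Isg15 encodes a small ubiquitin-like protein that type I interferon induces in most cell types. It is joined to target proteins by the E1 enzyme Uba7 (also called Ube1l), the E2 enzyme Ube2l6 and, in mouse, the E3 ligase Herc6, and it is taken off again by Usp18, which also binds the interferon receptor subunit Ifnar2 and dampens the interferon signal. The same signal, carried to DNA by a complex that holds Stat2 and Irf9, induces the effectors: the exonuclease Isg20, viperin (Rsad2), which makes a chain-terminating nucleotide, and the dynamin-like GTPases Mx1 and Mx2. The function of Ifi44 is less well known. The complex binds the interferon-stimulated response element, whose core is a GAAA sequence, a short spacer and GAAA again.

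The promoters of these genes are shown first because they carry, or lack, the letters of that element. RefSeq promoter windows on GRCm38.p6, from 250 bases before to 50 bases after each start, were at hand for 7 of the 10 genes (9 windows, since Isg20 has 3). The motif searched was GAAANNGAAA on both strands, with overlapping matches counted. It occurred in the windows of 2 genes, Isg15 and Rsad2, and in 3.44% of all 32851 promoter windows, or 3.99% of the 27025 genes that have one. When the spacer was allowed to be 1 to 3 bases, a choice made after the first search, Ifi44 was added, giving 3 genes, while the share of all windows rose to 8.61% and that of genes to 9.91%. A match is a run of letters and not a measured binding site. The 150 bases before the start are printed for the genes with matches and, beside them, for Ube2l6 and the first window of Isg20, 2 genes without a match, all from 5′ to 3′ on the strand of the gene. In Isg15 and Rsad2 capitals mark the matches with the spacer of 2 bases, 3 overlapping ones on the strand of the gene in Isg15 and 1 on the other strand in Rsad2. The wider rule added 1 match in each, from 128 to 120 bases before the start of Isg15 and from 109 to 99 before that of Rsad2, which are left in lower case. In Ifi44 capitals mark the matches of the wider rule, 2 overlapping ones on the other strand with spacers of 3 bases and 1 base.
Isg15, chr4:156200819-156200968, minus strand: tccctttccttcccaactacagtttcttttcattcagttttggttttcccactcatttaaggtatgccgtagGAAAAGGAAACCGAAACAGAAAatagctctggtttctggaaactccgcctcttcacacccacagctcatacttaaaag
Rsad2, chr12:26456453-26456602, minus strand: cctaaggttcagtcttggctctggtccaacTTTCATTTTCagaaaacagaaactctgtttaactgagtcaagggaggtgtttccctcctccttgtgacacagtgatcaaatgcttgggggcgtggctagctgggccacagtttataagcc
Ifi44, chr3:151749911-151750060, minus strand: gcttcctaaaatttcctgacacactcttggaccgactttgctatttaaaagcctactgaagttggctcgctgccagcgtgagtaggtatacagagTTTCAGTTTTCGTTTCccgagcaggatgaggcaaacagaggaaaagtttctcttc
Ube2l6, chr2:84798678-84798827, plus strand: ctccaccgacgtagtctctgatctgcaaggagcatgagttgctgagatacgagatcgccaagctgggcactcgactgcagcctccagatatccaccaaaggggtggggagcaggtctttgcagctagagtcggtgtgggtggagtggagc
Isg20, chr7:78913274-78913423, plus strand: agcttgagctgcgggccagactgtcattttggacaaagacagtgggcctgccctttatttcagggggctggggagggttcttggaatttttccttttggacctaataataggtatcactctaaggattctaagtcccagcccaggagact
The run of matches in Isg15 spans the bases from 78 to 57 before the start, and the match in Rsad2 the bases from 120 to 111 before it. The windows of Uba7 and Herc6 held no match under either spacer rule. Nor did those of 3 further genes searched, Trim25, Cmpk2 and Ifi44l, which are described below. Of these, Trim25 and Cmpk2 had log2 fold changes of 9.36 and 5.92 in Top2β-null over wt cells. No window was at hand for Usp18, Mx1 and Mx2. Whether matches go with the size of a change was not tested.

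Across the libraries, 133116830 to 149647278 reads were counted, of which 19.3% to 21.4% fell on repeat families. Values below are normalized counts, that is, counts scaled by edgeR's TMM factors to a common library size. Top2b itself had 18259 and 18465 normalized counts in wt and 3879 and 3789 in Top2β-null cells, so the library labels fit the genotype, although the Top2b count of the null cells was 0.209 times that of wt cells. Fibroblast markers were abundant in all libraries, with summed levels of 1302866 to 1327498 normalized counts in wt and 878701 to 883485 in Top2β-null cells, and the collagen gene Col1a1 alone had between 112305 and 298043. Of the 10 markers 9 were tested, and 3 were called higher in Top2β-null cells (Thy1 at a log2 fold change of 2.07, Pdgfrb at 1.88 and Pdgfra at 1.16) and 3 lower (Col1a1 at -1.38, Col3a1 at -1.01 and Postn at -5.86), beside 5.52% and 5.25% of all genes tested. Lum was near 0 in all 4 libraries and Postn went from 2573 and 2563 to 41.4 and 46.5 normalized counts. In bulk RNA of this kind, a change in the number of cells that express a gene and a change in RNA per cell cannot be told apart.

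Of the 10 genes, 5 (Isg15, Usp18, Rsad2, Mx2 and Ifi44) were barely detected in wt MEF cells and readily detected in Top2β-null MEF cells, with 132 to 872 times as many scaled counts. Mx1 was low in both. Uba7 rose less, Ube2l6 and Herc6 about doubled from levels that were already substantial, and Isg20 was lower in Top2β-null cells. A gene was called when edgeR's quasi-likelihood test gave a Benjamini-Hochberg adjusted p below 0.05, when its absolute log2 fold change was above 1 and when its mean normalized count was above 100, which are the cut-offs of the study's methods. By that rule 6 of the 10 genes were called higher in Top2β-null cells (Isg15, Usp18, Uba7, Ube2l6, Herc6 and Ifi44), beside 5.52% of the 25085 genes tested. None was called lower by edgeR or DESeq2, beside 5.25% of genes tested, and 1 gene, Isg20, had an adjusted p below 0.05 in that direction. By adjusted p alone, 8 were higher and 1 was lower, beside 32.8% and 33.7% of all genes. Both null libraries lay above both wt libraries for 9 of the 10 genes and below them for 1, beside 40.4% and 41.5% of all genes tested. A large share of all genes tested thus passed the adjusted p in these cells. Isg15, Usp18, Rsad2, Mx2 and Ifi44 passed the filter on low counts (at least 10 in at least 2 libraries) through the null libraries alone, and could not have been tested without a difference. Mx1 did not pass it and was not tested. The median log2 fold change of the 9 genes tested was 7.01, or 5.51 with the 3 of them that had a single wt read at the lower end of their counting interval, beside -0.01 over all genes tested.

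**Figure D1:**
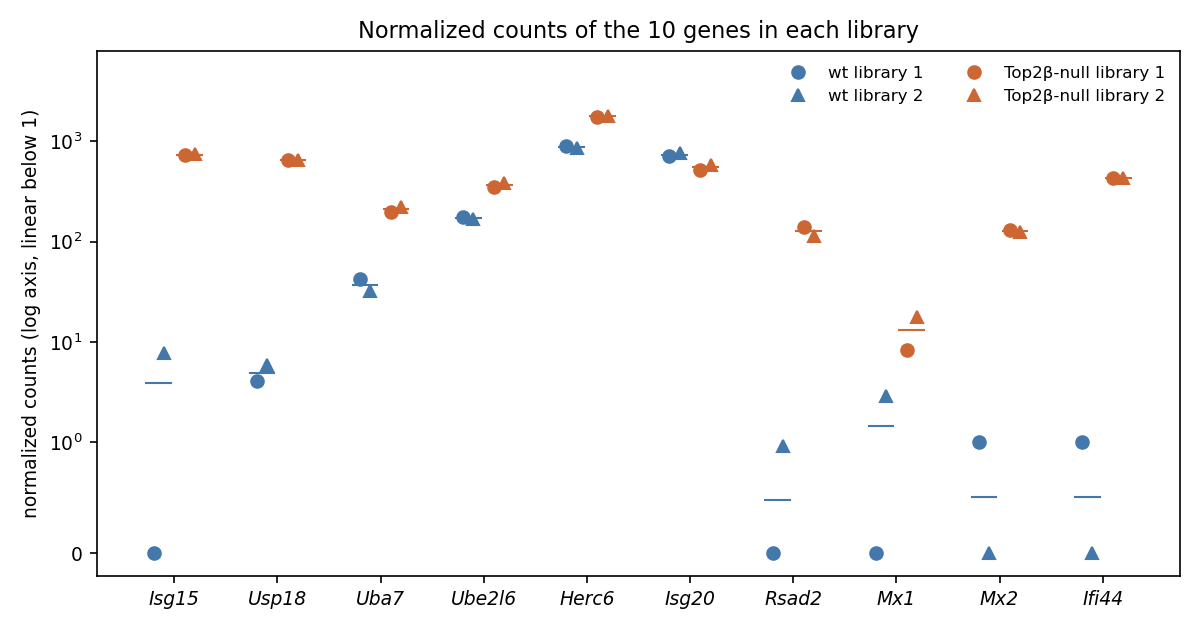
Normalized counts (log axis, linear below 1) of the 10 genes in each library, with circles for library 1 and triangles for library 2 of each genotype and a bar at the group mean (n = 2). Isg15, Usp18, Rsad2, Mx2 and Ifi44 lie below 10 in both wt libraries and above 100 in both Top2β-null libraries, whereas the points of Ube2l6, Herc6 and Isg20 lie close together.

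Isg15, the modifier itself (chr4:156199424-156200818 on GRCm38, the build of all positions here, minus strand), had 0 and 7.73 normalized counts in wt and 725 and 748 in Top2β-null cells. The wt libraries differed from each other, by 8 reads in 1 and none in the other, and the null libraries were alike. The fitted log2 fold change was 7.50 with a standard error of 0.246 (edgeR, adjusted p = 1.5e-13), and 1.08% of all genes tested had one at least as high. It rests on how wt cells are represented, being 6.55 without wt library 1 and 12.51 without wt library 2. In counts scaled to library size, the null libraries together had 187 times as much Isg15 as the wt libraries, with a 95% counting interval of 94.4 to 433. Such intervals cover counting error alone. A processed pseudogene, AC151275.1, shares 482 bases with Isg15 transcripts at 95.2% identity, and reads could have been divided between them. It had 11.1 and 15.5 normalized counts in wt and 25.9 and 23.8 in Top2β-null cells, so in wt cells the pseudogene had more counts than the gene.

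The activating enzyme Uba7 (chr9:107975505-107984060, plus strand) is the first step of conjugation. It had 42.4 and 31.9 normalized counts in wt and 197 and 221 in Top2β-null cells. Its groups were well apart, with a log2 fold change of 2.49 ± 0.188 (standard error; edgeR, adjusted p = 6.8e-09), a value that 5.66% of all genes tested reached or exceeded. Part of Uba7 overlaps Gm20661 on the same strand, which stayed low in all libraries (11.1 and 4.83 against 12.4 and 12.9 normalized counts, edgeR, adjusted p = 0.26).

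The conjugating enzyme Ube2l6 (chr2:84798828-84810335, plus strand) was already expressed in wt cells, at 175 and 169 normalized counts, and had 351 and 382 in Top2β-null cells. The groups did not overlap, and the log2 fold change was 1.09 ± 0.106 (standard error; edgeR, adjusted p = 1.5e-07). Ube2l6 transcripts share stretches of 224 to 508 bases, at 90.6% to 96.5% identity, with 8 other genes, and reads there may have been divided among them. One of these, the lincRNA gene 2810429I04Rik (224 bases at 90.6%), had 0 and 2.90 normalized counts in wt and 661 and 634 in Top2β-null cells, more in null cells than Ube2l6 itself, and its part in the change of Ube2l6 was not tested. Of the 4 others that could be tested, Ift46 and Gm19265 had log2 fold changes of 0.07 and 0.02, and D10Wsu102e and Smchd1 had -0.55 and -0.43. Herc6, the mouse ISG15 ligase (chr6:57581000-57664632, plus strand), had the highest counts of the set, 892 and 863 in wt and 1748 and 1793 in Top2β-null cells. Its log2 fold change of 1.01 ± 0.0524 (standard error; edgeR, adjusted p = 5.3e-11) was well above the spread of its libraries but lay just over the cut-off of 1. Leaving out wt library 2 or Top2β-null library 2 put it at 0.99 and 1.00, just under the cut-off, and the call was lost. Log2 fold changes at least as high as those of Ube2l6 and Herc6 were found in 11.3% and 12.1% of all genes tested. Without Top2β-null library 2, Uba7 also fell out of the calls, because its mean dropped to 90.1, and 4 genes remained called. The processed transcript Gm45193 lies within Herc6 on the same strand and shares exon sequence with it, at 261 and 291 normalized counts in wt and 454 and 484 in Top2β-null cells.

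Usp18, the protease that removes ISG15 (chr6:121245906-121270917, plus strand), had 4.04 and 5.80 normalized counts in wt and 651 and 655 in Top2β-null cells. All 4 libraries were close to their group mean. Usp18 rose by 7.01 ± 0.179 on the log2 scale (standard error; edgeR, adjusted p = 6.5e-15), a change that 1.41% of all genes tested reached, and the ratio of scaled counts was 132 (95% counting interval 71.7 to 277). The lincRNA gene Gm44148 overlaps it on the other strand and moved with it, from 2.02 and 0.966 to 89.1 and 88.1 normalized counts. The libraries were made with a stranded kit, but whether the counting used the strand is not given in the sources used here, so reads of the pair cannot be told apart.

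Ifi44 (chr3:151730922-151749960, minus strand) had 1.01 and 0 normalized counts in wt and 434 and 427 in Top2β-null cells. A single read in the wt libraries stands against 850 in the null libraries. The scaled ratio was 872 with a 95% counting interval of 156 to 34478, and the fitted log2 fold change of 9.44 ± 0.312 (standard error; edgeR, adjusted p = 1.6e-13) depends on the prior count that edgeR adds, being 11.75 without wt library 1 and 8.57 without wt library 2. Its neighbour and relative Ifi44l, also named as interferon-induced, had 1 read in all 4 libraries together.

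Rsad2, viperin (chr12:26442746-26456452, minus strand), had 0 and 0.966 normalized counts in wt and 139 and 114 in Top2β-null cells. Mx2 (chr16:97535308-97560900, plus strand) had 1.01 and 0 in wt and 130 and 125 in Top2β-null cells. Each thus had 1 read in the wt libraries together, and 249 and 252 in the null libraries. The scaled ratios were 255 for Rsad2 (95% counting interval 45.4 to 10128) and 258 for Mx2 (46.0 to 10250). The adjusted p from edgeR was 1.1e-09 for Rsad2 and 6.7e-10 for Mx2, at fitted log2 fold changes of 7.67 and 7.69 (standard errors 0.503 and 0.484) that, like that of Ifi44, depend on the prior count. Without the wt library that held the single read, wt library 2 for Rsad2 and wt library 1 for Mx2, they were 9.96 and 10.00, and without the other wt library 6.86 and 6.81. They were not called only because their mean normalized counts of 63.4 and 64.1 lay under the cut-off of 100.

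Mx1 (chr16:97447035-97462907, minus strand) had 0 and 2.90 normalized counts in wt and 8.29 and 17.8 in Top2β-null cells. These are 3 reads against 26, a scaled ratio of 8.89 with a 95% counting interval of 2.72 to 45.9. The null libraries lay above the wt libraries, but differed from each other by more than the lower of them differed from wt library 2. Mx1 and Mx2 share 921 bases of transcript at 94.8% identity, so some reads may have been assigned to the other gene. In many laboratory mouse strains both Mx genes are damaged, and the annotation lists Mx2 as a polymorphic pseudogene. The strain of these cells is not given in the sources used here.

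Isg20 (chr7:78913424-78920396, plus strand), an exonuclease that degrades single-stranded RNA, went the other way. It had 706 and 770 normalized counts in wt and 516 and 581 in Top2β-null cells. This is a log2 fold change of -0.43 ± 0.0754 (standard error; edgeR, adjusted p = 0.00012). Both null libraries lay below both wt libraries, but the change is smaller than the cut-off on fold, and 74.9% of all genes tested had a log2 fold change at least as high.

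**Figure D2:**
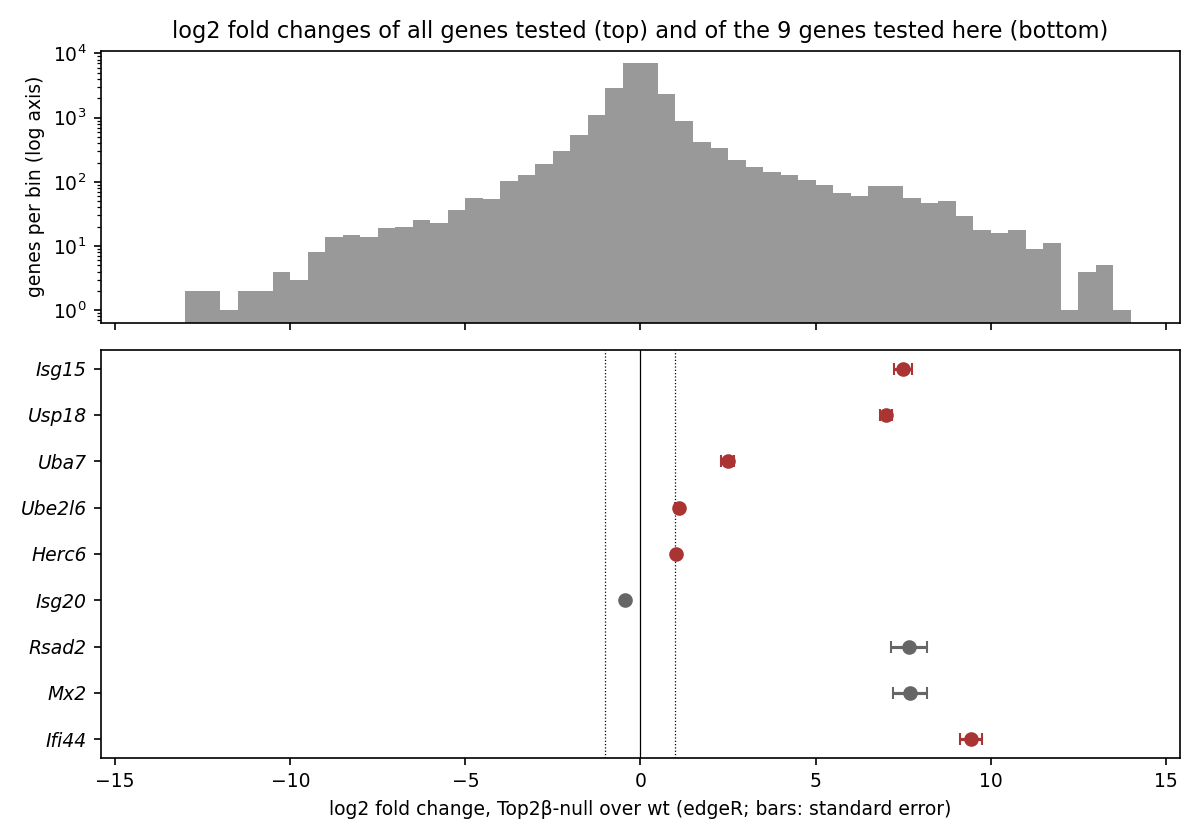
The upper panel counts the 25085 genes tested by log2 fold change of Top2β-null over wt cells (log axis), and the lower panel shows the fitted log2 fold change of the 9 genes tested here with its standard error, in red where called higher and in grey where not called. Dotted lines mark a log2 fold change of 1 in either direction. Ifi44, Mx2, Rsad2, Isg15 and Usp18 lie between 7.01 and 9.44, Uba7 at 2.49, Ube2l6 and Herc6 next to the line at 1, and Isg20 at -0.43.

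The order of levels among the genes was not the same in the 2 genotypes. To compare levels between genes, normalized counts were divided by the length of the merged exons. In wt cells Isg20 was highest at 379 and 414 normalized counts per kb, ahead of Herc6 (96.0 and 92.8) and Ube2l6 (87.5 and 84.7). Uba7, at 6.33 and 4.76 per kb, Isg15, at 0 and 10.2, and Usp18, at 1.45 and 2.08, followed far below. The libraries of Isg15 spanned those of Uba7 and Usp18, so the order of Isg15 among these is not determined. Ifi44, Rsad2, Mx1 and Mx2 all lay below 1 per kb in wt cells, and their order is not determined either.

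In Top2β-null cells Isg15 was first, at 959 and 989 normalized counts per kb. Isg20 followed at 277 and 313 per kb and Usp18 at 233 and 235, in each case without overlap. Herc6 (188 and 193 per kb) and Ube2l6 (176 and 192) came next and overlapped each other. Ifi44, at 70.8 and 69.6 per kb, was below them. Before division by length it lay above Ube2l6, with 434 and 427 against 351 and 382 normalized counts. The order of Ifi44 and Ube2l6 thus depends on the exon lengths used. Mx2 (36.1 and 34.5 per kb), Uba7 (29.4 and 33.0) and Rsad2 (32.0 and 26.3) formed a group in which Uba7 and Rsad2 overlapped, and Mx1 was last at 2.19 and 4.71.

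**Figure D3:**
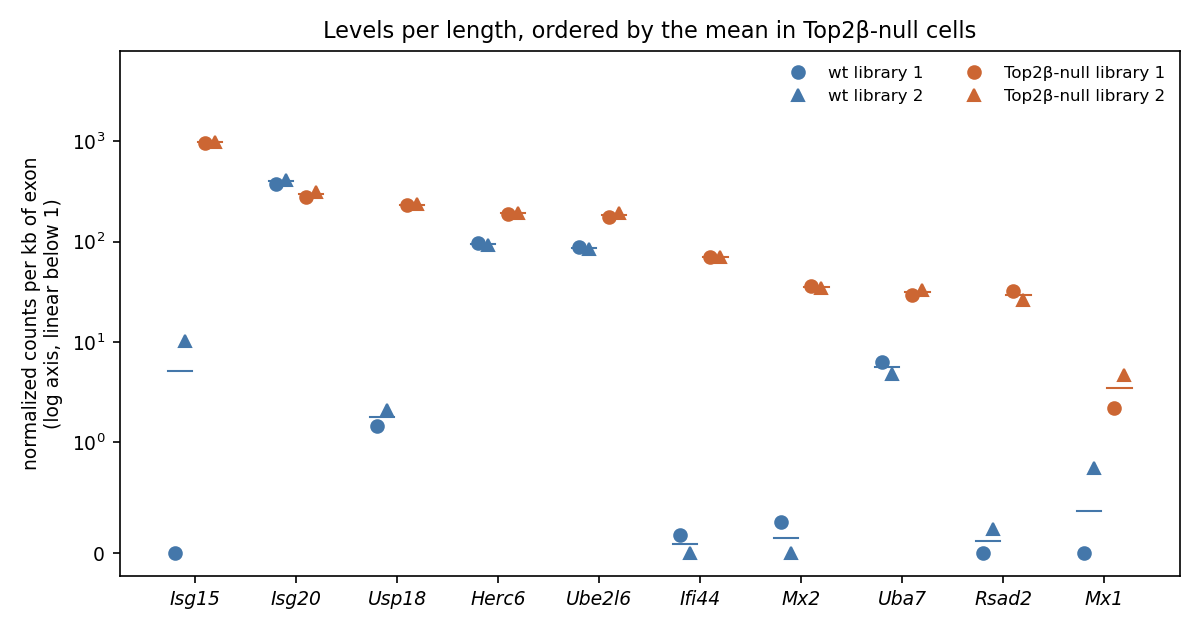
Normalized counts per kb of merged exon (log axis, linear below 1) of the 10 genes, ordered by their mean in Top2β-null cells, with circles for library 1, triangles for library 2 and a bar at each group mean (n = 2). Isg15 moves from 5.11 per kb on average in wt to 974 in Top2β-null cells and becomes the highest, whereas Isg20 moves from 397 to 295.

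Ratios within a library need no scaling between libraries. In the Top2β-null libraries, per length, the ratio to Isg15 was 0.243 and 0.237 for Usp18, 0.196 and 0.195 for Herc6, 0.183 and 0.194 for Ube2l6, and 0.0307 and 0.0334 for Uba7. The E1 enzyme was thus the least abundant RNA of the conjugation machinery, and the replicates differed little. The same ratios could be formed in only 1 wt library, because the other had no Isg15 read. There Herc6 and Ube2l6 stood at 9.08 and 8.29 times Isg15, but on 8 Isg15 reads. Among the enzymes alone, in ratios chosen after the values were seen, Uba7 to Ube2l6 was 0.0724 and 0.0562 in wt and 0.167 and 0.172 in Top2β-null libraries, a difference of 1.41 on the log2 scale (p = 0.33 in a two-sided exact permutation test, which cannot give less with 2 libraries a group). Herc6 to Ube2l6 was 1.10 in each wt library and 1.07 and 1.01 in Top2β-null cells, a difference of -0.08 on the log2 scale (p = 0.33 in the same exact permutation test), while both genes about doubled. Mx1 to Mx2 was 0.0606 and 0.136 in the null libraries and could not be formed in wt.

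Beyond the 10 genes, other components and regulators of the ISG15 pathway showed mostly small differences. Of a list of 14, 13 were tested and 4 were called higher: Trim25, Usp13, Usp2 and Stat2, beside 5.52% of all genes. By adjusted p alone 10 were higher and 3 lower, beside 32.8% and 33.7%. Itgb2, a subunit of an integrin that serves as receptor for secreted ISG15, was called lower at a log2 fold change of -1.76, and the median of the list was 0.11. Trim25, an E3 ligase for ubiquitin and ISG15, had 14.1 and 10.6 normalized counts in wt and 8168 and 8163 in Top2β-null cells. That is a log2 fold change of 9.36 ± 0.0758 (standard error; edgeR, adjusted p = 8.9e-21), at null counts higher than those of any of the 10 genes. Usp13, a ubiquitin protease reported to bind ISG15, rose by 2.08 on the log2 scale, Usp2 by 1.66, and Stat2 by 1.15. The abundant genes Usp5, Usp14, Usp16 and Arih1 had log2 fold changes between 0.06 and 0.11, and Usp24 had -0.11. Usp21 had 0.52, Ifnar2, to which Usp18 binds, 0.61, and Skp2, a subunit of the ubiquitin ligase that degrades Usp18, -0.45, all below the cut-off on fold. Itgal, the other subunit of the integrin, was not tested, at no more than 6.93 normalized counts in any library.

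The relatives of these genes that serve ubiquitin or other pathways had log2 fold changes around 0. All 22 were tested, 1 was called lower (Herc3, another HERC ligase, at -1.07), beside 5.25% of all genes, 10 were higher and 10 lower by adjusted p alone, beside 32.8% and 33.7% of all genes, and the median log2 fold change was -0.01, beside -0.01 over all genes tested. The ubiquitin E1 genes Uba1 and Uba6 had -0.19 and 0.34, and the other E1 genes Uba2, Uba3 and Sae1 had 0.14, 0.54 and 0.11. Ube2l3, the closest relative of Ube2l6, had 12891 and 13411 normalized counts in wt and 12533 and 12833 in Top2β-null cells, which did not overlap but missed the threshold (edgeR, adjusted p = 0.10). The ubiquitin genes Ubb and Rps27a had -0.07 and 0.24, and Nedd8, another ubiquitin-like modifier, had 0.03. Among the HERC genes, Herc1 had 0.25, Herc2 0.08 and Herc4 -0.59. Of the dynamin family to which the MX proteins belong, Dnm1, Dnm2, Dnm1l and Opa1 lay between -0.25 and 0.15. Dnm3 had 1.67 (44.4 and 50.2 against 147 and 155 normalized counts) and was not called because its mean of 99.1 missed the cut-off. The exonuclease genes nearest to Isg20, Isg20l2 and Aen, had -0.22 and -0.07.

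**Figure D4:**
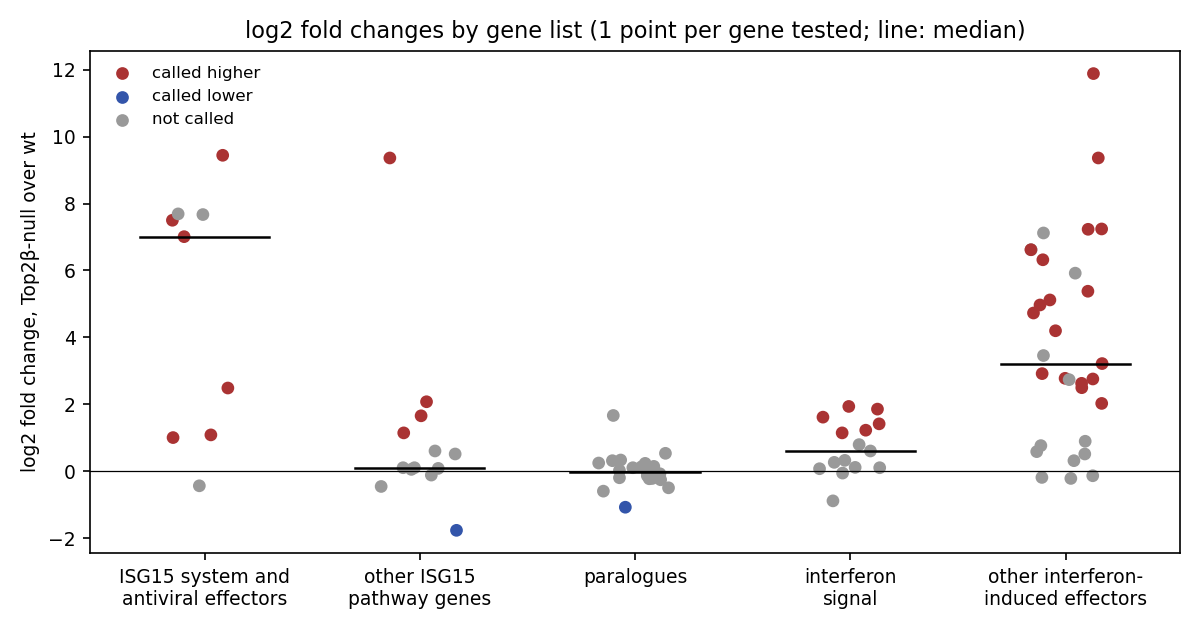
Log2 fold change of Top2β-null over wt cells (vertical axis) for each gene tested of 5 gene lists, with red for genes called higher, blue for called lower, grey for not called, and a line at each list's median. The medians are 7.01 for the 9 tested genes described here, 0.11 for the other ISG15 pathway genes, -0.01 for their relatives, 0.61 for interferon signalling and 3.22 for other interferon-induced effectors.

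Of 15 genes of interferon signalling, all tested, 6 were called higher, beside 5.52% of all genes. By adjusted p alone 12 were higher and 1 lower, beside 32.8% and 33.7% of all genes. Irf9 and Stat2, of the complex that binds the response element, were among them: Irf9 went from 824 and 838 to 3171 and 3225 normalized counts (log2 fold change 1.94), and Stat2 from 1045 and 1057 to 2334 and 2325 (1.15). The interferon regulatory factors Irf7, Irf5 and Irf1 rose by 1.62, 1.42 and 1.23. Ifnar1 had 0.33, Jak1 0.11 and Ifngr2 0.12, and the interferon γ receptor gene Ifngr1 had -0.88. Tyk2 (0.08) and Socs1 (-0.05) did not pass (edgeR, adjusted p of 0.13 and 0.44). Socs3 had 0.80 (edgeR, adjusted p = 2.6e-11), below the cut-off on fold.

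The interferon genes themselves were close to absent. Of 21 listed, 12 had no read in any library and 18 had fewer than 10 in each library. Ifnb1 had 1 and 3 reads in wt and 2 and 1 reads in Top2β-null cells, so no difference was detectable at this depth. Ifne and Ifnk were the 2 that could be tested, and neither passed (edgeR, adjusted p of 0.075 and 0.94). The highest single count of the list was 23, reached by Ifna13 in a Top2β-null library and by Ifnk in a wt library.

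Of 32 other interferon-induced effectors listed, 31 were tested and 18 called higher, beside 5.52% of all genes, 28 had an adjusted p below 0.05 in that direction and 3 in the other, beside 32.8% and 33.7%, and the median log2 fold change was 3.22 (2.92 with the 2 genes without a wt read, Sp100 and Sp110, at their bound against 3 counts per library). Sp100, a nuclear body protein, had no read in wt and 464 and 475 normalized counts in Top2β-null cells, and Dtx3l and its partner Parp9 rose by 7.24 and 6.32. Samhd1, Tor3a and Znfx1 were slightly lower, at -0.21, -0.18 and -0.13. Sp100, Sp110, Ddx60, Cmpk2 and Slfn5 passed the filter on low counts through the null libraries alone. Ifi27l2a, with 12 and 7 reads in wt, also needed a null library to pass. These genes could be tested only because they differed, and they are part of the counts and medians above. Trim25 is in this list and in that of the ISG15 pathway, and Stat2 and Ifnar2 are in the latter and in that of interferon signalling, so their values are counted in both. This list was drawn up with earlier results of these data known, and its direction is no independent evidence.

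Markers of other cell types moved in both directions. Of 14 leukocyte markers, Tyrobp, Adgre1 and Siglech were at 0 in all 4 libraries and Ptprc, which encodes the pan-leukocyte antigen CD45, had 5.05 and 6.76 normalized counts in wt and 2.07 and 3.96 in Top2β-null cells. The summed leukocyte level was 3311 to 3363 in wt and 2152 to 2184 in Top2β-null cells, and 1 of the 6 markers tested, Cd68, was called lower (beside 5.25% of all genes), at 1641 and 1688 normalized counts in wt against 302 and 289. Its difference is larger than that of the sum. Csf1r and Cd14 were also expressed in all libraries. Csf1r had 740 and 767 normalized counts in wt and 962 and 978 in Top2β-null cells. Cd14 had 783 and 778 against 733 and 755, which did not pass (edgeR, adjusted p = 0.34). By adjusted p alone 3 of the 6 were higher, beside 32.8% of all genes. These were Csf1r at a log2 fold change of 0.36, Fcer1g at 0.74, and Itgam, which rose from 1.01 and 0.966 to 28.0 and 28.7 normalized counts (edgeR, adjusted p = 4.7e-06). Itgam passed the filter on low counts through the null libraries alone, and could be tested only because it differed. The part of these markers in the results was not tested. The 4 endothelial markers summed to 162 to 165 in wt and 252 to 258 in Top2β-null cells. Of these Kdr was called higher (71.7 and 68.6 against 203 and 205 normalized counts), Tek was lower (43.4 and 34.8 against 9.32 and 3.96; edgeR, adjusted p = 7.8e-05), and Pecam1 and Cdh5 had log2 fold changes of -0.50 and -0.16 that did not pass. The 4 epithelial markers summed to 67.6 to 70.5 in wt and 19.7 to 19.8 in Top2β-null cells.

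The nearest tested protein-coding gene on each side of each of the 10 genes gave 18 distinct neighbours, of which 6 were called higher, beside 5.52% of all genes tested, and their median log2 fold change was 0.73, beside -0.01. They lay between 163 and 2740367 bases away, so not all are adjacent. The farthest were Adgrl2, which is among the 6, at 2740367 bases from Ifi44, and M6pr at 1037803 bases from Usp18. AW011738, Cmpk2, Ptgfr and Rnf144a, the last also among the 6, passed the filter on low counts through the null libraries alone. Bace2 and Acan passed it through the wt libraries alone. These neighbours could be chosen only because they differed, which bears on the count and the median. On chromosome 4, Agrn, the gene of the matrix protein agrin, lies 1.94 kb from Isg15 and went from 2338 and 2405 to 15668 and 15958 normalized counts. On its other side AW011738, at a distance of 2.49 kb, went from 0 and 4.83 to 159 and 177. Rsad2 lies between Cmpk2, a nucleotide kinase gene 12.8 kb away that is induced with it in the antiviral response, and Rnf144a, 27.5 kb away. Cmpk2 had 2.02 and 1.93 normalized counts in wt and 112 and 143 in Top2β-null cells, and Rnf144a 7.07 and 6.76 against 737 and 675. In the null libraries the ratio of Rsad2 to Cmpk2 per length was 1.19 and 0.767, so which was the more abundant differed between the libraries. On the sides of Uba7, Inka1, 0.163 kb away, had a log2 fold change of -0.98 (edgeR, adjusted p = 9.1e-06), and Traip, 3.23 kb away, rose by 1.05. Pyurf, next to Herc6, rose by 1.10, beside 1.01 for Herc6. Neighbours could also be lower: Bace2, beside the Mx genes, had 132 and 111 normalized counts in wt and 2.07 and 4.95 in Top2β-null cells, and Acan, beside Isg20, had 98.9 and 100 against 5.18 and 3.96 (edgeR, adjusted p = 3.5e-09 and 8.8e-09), although their means were under the cut-off of 100.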

How the data were processed

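The authors trimmed paired-end reads, mapped them to mm10 (GRCm38) with STAR, keeping reads that map to many places, and obtained counts of Gencode genes and of repeat families with TEtranscripts. What they deposited are these raw counts, 1 column per library. The mode and strand setting of the counting are not given in the sources used here. If reads with several alignments were shared, counts of similar genes depend on each other.

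Libraries were grouped by the sample labels. The 10 genes and all gene lists were chosen with earlier results of these data known. Of 54842 gene identifiers, 54409 matched GENCODE M21 without version, which gave symbols, positions and merged exon lengths. In R 4.3.3, edgeR 4.0.16 (with limma 3.58.1) was fitted to 25085 genes and 1481 repeat families that reached 10 counts in 2 or more libraries, with TMM factors over both, genotype as the only term, a quasi-likelihood test and Benjamini-Hochberg adjustment over all 26566 features. Standard errors were obtained as |log2 fold change| over √F. The fit was tested on simulated counts. Named are the 10 genes, the tested genes of the ISG15 pathway and relatives' lists, the nearest tested protein-coding neighbours, Top2b and, chosen after their values were seen, examples from the other lists and the genes that overlap or resemble the 10.

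Some list genes are counted but not reported here by name. Count ratios carry exact 95% intervals for counting error. They replaced the planned bound against 3 counts per library, since each of the 10 genes had a read in at least 1 wt library. Ratios between genes within a library were left undetermined where either had 3 counts or fewer. The replicates of each group differed beyond counting error, with chi-square values of 3.65 (wt) and 5.07 (Top2β-null) per degree of freedom, and each counted as 1 sample. Similar transcripts were those with at least 90% identity over at least 200 bases (BLAST+ 2.17.0). Alternatives were DESeq2 1.42.0, other scalings and filters, a replicate block, adjusted p alone and each library left out.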

Additional observations from a re-analysis of the deposited data

How the results depend on the processing

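The 9 tested genes kept their direction and an adjusted p below 0.05 in each fit that could include them: DESeq2, scaling to the total count, TMM factors computed on genes without repeats, DESeq2's size factors in edgeR, no filter on low counts, the replicate block, and each library left out. A filter of at least 100 counts in every library kept Ube2l6, Herc6 and Isg20, so that 2 of the 10 genes were called higher, and 816 genes in all. With adjusted p as the only cut-off, 1 of the 10 was called lower, and 8218 genes were higher and 8445 lower. Without division by length, 3 of the 10 genes held the same place in the order of levels in Top2β-null cells. Leaving out each library gave 4 to 6 of the 10 genes called higher and 0 lower, and 1264 to 1477 genes higher and 1235 to 1386 lower. The fitted log2 fold changes then ranged from 6.55 to 12.51 for Isg15, 6.79 to 7.29 for Usp18, 2.30 to 2.71 for Uba7, 1.03 to 1.17 for Ube2l6, 0.99 to 1.05 for Herc6, -0.51 to -0.32 for Isg20, 6.86 to 9.96 for Rsad2, 6.81 to 10.00 for Mx2, and 8.57 to 11.75 for Ifi44. The widest ranges belong to genes with a wt library at 0 counts. The features were those of the filter over 4 libraries, and the lone library of a group was assumed to vary like the other group. Over 17952 features, libraries with the same number deviated from their group means with a correlation of 0.0197. No shared deviation was thus seen, but with 2 libraries per group this cannot decide whether they were prepared in pairs. The replicate block still called 6 of the 10 genes higher and 0 lower, with 1386 genes higher and 1318 lower in all. Without a filter on low counts, Mx1 had a log2 fold change of 3.06 (edgeR, adjusted p = 0.0042).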
